A study of Homo sapiens with 4 samples.

Results

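The genes described here encode the nuclear subunits of the mitochondrial respiratory chain and of ATP synthase, measured in HEK293 cells (an established human embryonic kidney line transformed with adenovirus DNA) with and without lysophosphatidic acid (LPA). They were taken by symbol from the array's annotation: symbols that begin with NDUFA, NDUFB, NDUFC, NDUFS or NDUFV, with UQCR, with COX and a digit, or with ATP5. That gave 100 symbols among 19775 genes with a probe set of their own. Pseudogene, antisense and divergent non-coding symbols (6) were left out, and COX1, COX2 and COX3 were kept apart because mitochondrial DNA encodes them. Of the 91 nuclear genes that remained, 72 encode subunits. The other 19 begin with the same letters but are not subunits of a complex: 17 assembly factors, the supercomplex factor COX7A2L and the ATP synthase inhibitor ATP5IF1. NDUFS8, NDUFS5, NDUFC2, UQCRH and UQCRHL share every probe set with another symbol and were not analysed here.

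The LPA group was 2 arrays (replicates 1 and 2) of cells kept overnight without serum and then given 1 µM LPA, a phospholipid that signals through G protein-coupled receptors, for 2 h. The untreated group was 2 arrays (replicates 1 and 2) whose treatment is given as none. Whether the untreated cells were also kept without serum was not established here. The titles of these arrays hold the abbreviation Vc, whose meaning is not stated. All 4 arrays come from 1 cell line. Nothing states that replicates were separate cultures, so the spread behind each p-value is that among arrays and could be technical. RNA came from whole cultures, in which fewer mitochondria-rich cells and less of a transcript per cell cannot be told apart.

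In mitochondria, electrons from NADH enter the chain at complex I (NADH dehydrogenase) and pass through complex III (cytochrome bc1) and cytochrome c to complex IV (cytochrome c oxidase), which reduces oxygen. Complexes I, III and IV pump protons across the inner membrane, and complex V (ATP synthase) lets them back to make ATP. Most subunits are encoded in the nucleus and imported, and the catalytic core of complexes I, III and IV also needs subunits made from mitochondrial DNA. The transcription factors NRF1, GABP (an ETS factor) and YY1 are known regulators of the nuclear genes.

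Array medians were 70.7 and 72.3 on LPA replicates 1 and 2, and 70.3 and 76.1 on untreated replicates 1 and 2. LPA replicate 2 stood apart at the bright end, with a maximum signal of 62508 against 93776 to 104012 on the other arrays, and its ACTB control had a 3′-to-5′ signal ratio of 18.8 against 12.6 to 13.6. The part of the maximum signal or of these ratios in the differences was not tested beyond the values given without LPA replicate 2. Of 8 genes known to be expressed in HEK293 cells, among them neurofilament, keratin and vimentin genes, 7 lay above the filter on dim genes (a mean signal of 70.5), although PAX2 only just did. Of 13 markers of blood, endothelium, liver, muscle, fibroblasts and glia only PECAM1 and COL1A1 passed it, PECAM1 only just. PECAM1 read 111 and 48.3 on LPA replicates 1 and 2, and 69.0 and 130 on untreated replicates 1 and 2. COL1A1 read 847 and 1069 against 991 and 1103. The summed signal of those 2 was 958 and 1118 on LPA replicates 1 and 2, against 1060 and 1233 on untreated replicates 1 and 2. The measured markers of blood, liver, muscle and glia had means below the filter, and the part of other cells in the results was not tested.

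Of the 72 subunits, 67 passed the filter. Their brightest probe sets were slightly lower after LPA on average and 0 passed the threshold: the median log2 difference (LPA minus untreated, on log2(signal + 1)) was -0.11, and 58 of 67 were below 0, against 48.1% of 11865 genes tested and a median of 0.0092 over them. In limma, fitted across all genes, 0 subunits and 0 genes passed an adjusted p of 0.05 (0% of genes). Before adjustment, 0 subunits and 207 genes (1.74%) had a limma p below 0.05. Both LPA values lay below both untreated values for 22 subunits, against 12.5% of all genes, and above them for 2, against 14.4%. The remaining 43 overlapped. COX6A2, which passed the filter only through its untreated values, is 1 of the 58 and of the 22, and is in the counts by replicate number below.

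The lower values came mainly from 1 replicate number. In number 1 (LPA replicate 1 minus untreated replicate 1) the median over the subunits was -0.014, with 36 of 67 below 0 (50.2% of all genes). In number 2 it was -0.19, with 59 of 67 below 0 (46.7% of all genes). The difference was more negative in number 2 than in number 1 for 55 subunits, against 47.9% of all genes. The 2 untreated arrays differed too: replicate 2 minus replicate 1 had a median of 0.069 over the subunits, while between the LPA arrays it was -0.12.

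**Figure D1:**
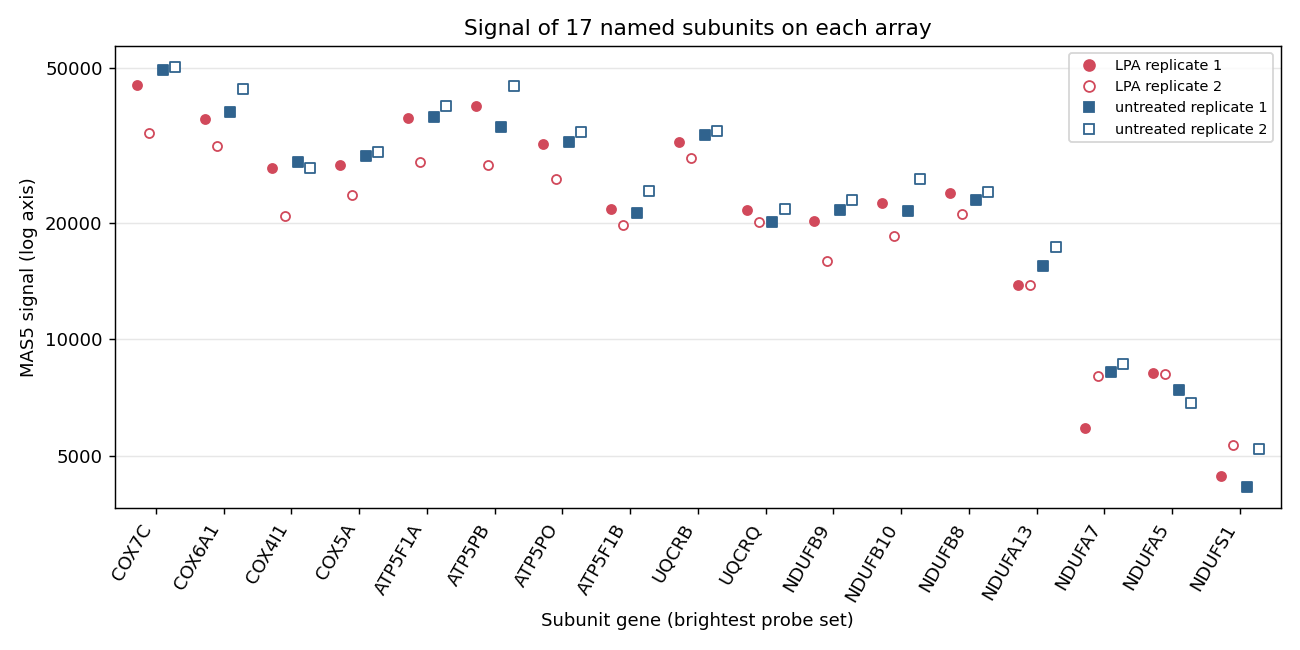
MAS5 signal (log axis) of 17 named subunits at their brightest probe sets on each array, with LPA replicates as circles on the left of each gene and untreated replicates as squares on the right; filled symbols are replicate 1 and open symbols replicate 2. For COX7C the LPA circles lie at 45204 and 34050.1, below both untreated squares, and for most bright genes the open circle, LPA replicate 2, is the lowest symbol.

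Complex I had 33 tested subunits with a median difference of -0.10 (-0.031 in number 1 and -0.11 in number 2), 24 of them below 0. After quantile normalization 18 were below 0, and without LPA replicate 2 the median was -0.046. The accessory subunit NDUFB9 read 20239 and 15906 in LPA cells and 21553 and 22843 in untreated cells, a log2 difference of -0.31 ± 0.17 (SE, 2 arrays a group, limma adjusted p = 0.9999). NDUFA13, an accessory subunit also known as GRIM-19, read 13787 and 13779.5 after LPA, against 15430 and 17336 untreated (-0.25 ± 0.15). For both genes the groups did not overlap, and NDUFA13 was the more even of them, with the LPA arrays almost equal. NDUFA7 read 5887 and 8008 in LPA cells and 8205 and 8607 in untreated cells (-0.29 ± 0.18). Unlike most bright subunits it was lower mainly in number 1 (-0.48, against -0.10 in number 2), and LPA replicate 1 alone stood low. NDUFB11, encoded on the X chromosome, differed by -0.21 ± 0.15 without overlap. NDUFB10 also differed by -0.21 ± 0.17, but its LPA values of 22413 and 18441 straddled the lower of its untreated values, 21471 and 25837.

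Some complex I genes ran the other way. NDUFA5, an accessory subunit of the matrix arm, read 8156 and 8151 in LPA cells, above 7409 and 6837 in untreated cells (0.20 ± 0.14), and was higher in both numbers. NDUFS7, a core subunit that binds an iron-sulfur cluster, was the other subunit with both LPA values above both untreated values, at 3135 and 3244 against 2979.5 and 3089 (0.072). NDUFS1, the largest core subunit, read 4427 and 5325 after LPA and 4148 and 5213 untreated (0.062 ± 0.18), so that the replicate numbers differed by more than the groups. NDUFV1, the core subunit that binds the flavin and accepts electrons from NADH, differed by -0.11 ± 0.15, NDUFA9 by -0.15 ± 0.15 and NDUFB8 by -0.061 ± 0.15. Over the 5 core subunits the median was -0.069, and over the 28 accessory ones -0.11.

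Complex III had a median of -0.050 over 6 tested subunits on the deposited scale and of 0.052 after quantile normalization. UQCRB, a small subunit near the quinone site, read 32372.5 and 29430 in LPA cells against 33596 and 34408 in untreated cells (-0.14 ± 0.15). At the brightest probe sets it was the only one of the 6 without overlap. Its second probe set, almost as bright, ran the other way, with 29903 and 30342 after LPA above 28349 and 29157 untreated (0.067). UQCR10 differed by -0.11 ± 0.16, and UQCR11 by -0.045 ± 0.16. The core proteins UQCRC1 (-0.054 ± 0.19) and UQCRC2 (-0.023 ± 0.14) overlapped, as did UQCRQ, with 21523 and 20069 after LPA and 20032 and 21718 untreated. All 6 were below 0 in number 2 (median -0.17), and 2 of 6 in number 1 (median 0.042). After quantile normalization 1 of 6 was below 0 in number 2 (median 0.084). The Rieske subunit UQCRFS1 was not analysed here.

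In complex IV all 10 tested subunits of the widely expressed kind were below 0, with a median of -0.13, and after quantile normalization 4 of 10 were (median 0.018). With the tissue-restricted isoforms COX4I2 and COX6A2, 12 of 12 were below 0 (median -0.18), and 6 of 12 after quantile normalization. COX6A2 adds nothing to these counts, because it passed the filter only through its untreated values and so had to be below 0. COX7C, a small membrane subunit, read 45204 and 34050.1 in LPA cells and 49590 and 50427 in untreated cells (-0.35 ± 0.18, limma adjusted p = 0.9999). COX6A1 read 36945 and 31482.5 against 38680.5 and 44216 (-0.28 ± 0.17). COX5A read 28129 and 23577 against 29697 and 30454 (-0.22 ± 0.16). The groups did not overlap for these 3 genes, and LPA replicate 2 was the lowest array for each. COX4I1, the regulatory subunit that carries a binding site for ATP, read 27630 and 20794 after LPA and 28686 and 27600.1 untreated, so its groups met (-0.23 ± 0.18). COX8A differed by -0.10 ± 0.15 and COX7A2 by -0.018 ± 0.15.

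Several complex IV subunits have isoforms restricted to some tissues, and these were dim here. The heart and skeletal muscle isoform COX7A1 read 3.98 and 4.06 in LPA cells and 26.0 and 5.53 in untreated cells, below the filter, as were the testis isoforms COX6B2, COX7B2 and COX8C. ATP5MF, a complex V subunit and no such isoform, was the other one not tested. Its only single-symbol probe set read 36.3 and 9.61 after LPA and 6.65 and 42.1 untreated. Probe sets shared with other symbols were not used, so these values do not show that ATP5MF was scarce. The muscle isoform COX6A2 passed the filter only through its untreated values: it read 49.5 and 56.7 after LPA and 95.7 and 118 untreated. Both LPA values were below the filter's signal, so no size is given for its difference, although it is counted among the tested subunits. COX4I2, the lung isoform, read 75.8 and 157 against 145 and 161 (-0.48 ± 0.45), with 1 LPA array low.

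In complex V all 16 tested subunits were below 0 and the median was -0.16, with -0.0058 in number 1 and -0.30 in number 2. After quantile normalization 11 of 16 were below 0, and without LPA replicate 2 the median was -0.050. ATP5F1A, the alpha subunit of the catalytic head, read 37240 and 28742 in LPA cells against 37542 and 39972 in untreated cells (-0.24 ± 0.18). ATP5F1B, the beta subunit that holds the catalytic sites, read 21650.0 and 19763 against 21125 and 24136 and overlapped (-0.13 ± 0.16). The head subunits had a median of -0.31 in number 2 and 0.028 in number 1. Among the stalk subunits that hold the head still, ATP5PO (formerly OSCP) read 31866.5 and 25920.0 against 32272 and 34282.5 (-0.21 ± 0.17). ATP5PB read 40068 and 28095 against 35330.0 and 45096 (-0.25 ± 0.21), the widest spread between numbers among tested complex V subunits: 0.18 in number 1 and -0.68 in number 2. ATP5PD differed by -0.18 ± 0.15 without overlap. Of the 3 genes for the proton-carrying c-ring, ATP5MC2 differed by -0.20 ± 0.16 without overlap. ATP5MK, a small membrane subunit, differed by -0.18 ± 0.17 with overlap.

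**Figure D2:**
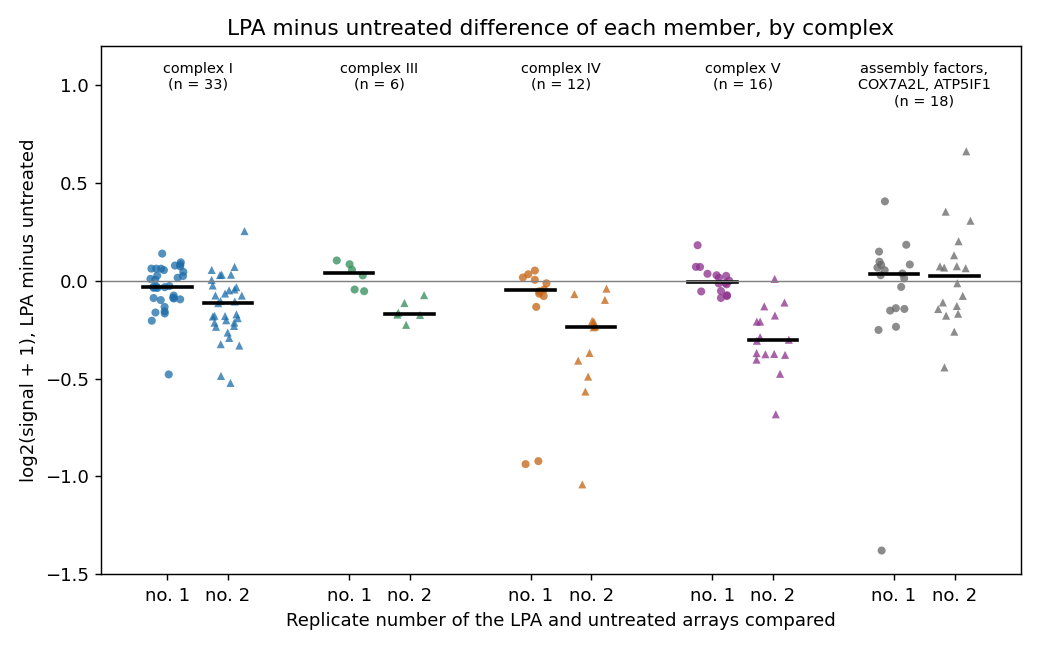
LPA minus untreated difference in log2(signal + 1) of every tested member, within replicate number 1 (circles) and number 2 (triangles), for complexes I, III, IV and V and for the non-subunit members; each point is 1 gene and the bar is the median. The medians of complexes IV and V lie at -0.050 and -0.0058 in number 1 and at -0.24 and -0.30 in number 2. Those of complex IV include COX6A2, which passed the filter only through its untreated values. Over the 10 widely expressed subunits of complex IV they are -0.029 in number 1 and -0.24 in number 2.

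The 18 tested genes that are not subunits had a median difference of -0.024 (0.033 in number 1 and 0.026 in number 2). COX20, a chaperone of the COX2 protein, read 1205 and 1548 in LPA cells and 1086 and 1212 in untreated cells (0.25 ± 0.20). Its second probe set, almost as bright, read 1124 and 1147 against 1350 and 1090 (-0.095), and a much dimmer one gave 0.84. COX11, a copper chaperone, read 12750.2 and 12289 against 14090.5 and 13908 (-0.16 ± 0.14), without overlap and about as much lower in number 1 (-0.14) as in number 2 (-0.18). COX14 also did not overlap (-0.12 ± 0.15). COX19 read 104 and 136 against 271 and 85.4 (-0.36 ± 0.55), so its untreated arrays differed more than its groups. COX17, another copper chaperone, lay below the filter at its own probe set. ATP5IF1, which blocks ATP synthase from running backwards, read 12478 and 12564 after LPA and 12369 and 11934 untreated (0.043 ± 0.14), with both LPA values higher.

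The subunit probe sets were among the brightest on the arrays. Their median rank among tested genes was the 97.7th percentile, and 55 of 67 were in the brightest 10% of tested genes, while the non-subunit members had a median rank of 80.0. Signal here is a property of a probe set, not a measure of how much of one transcript there is against another. Over all genes, the difference in number 2 went with brightness. With the tested genes in 10 equal bins from dim to bright, the median of the other genes was 0.13, 0.12 and 0.081 in bins 3, 4 and 5. In the brightest bin it was -0.15, and 78.7% of all 1187 genes there were below 0. Of the 55 subunits in that bin, 49 (89.1%) were below 0 in number 2. Both LPA values were below both untreated values for 18 of them (32.7%), against 26.2% of the whole bin. In the brightest of 5 equal steps of that bin, from a signal of 20897 upwards, the 27 subunits had a median of -0.29 in number 2, and the other genes had -0.42. In the step below it the 15 subunits had -0.11 and the other genes -0.19. In bin 9, 10 subunits had -0.17 and the other genes -0.018. In number 1 no such slope was seen, and the other genes' medians lay between -0.023 and 0.014 over all bins and steps.

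**Figure D3:**
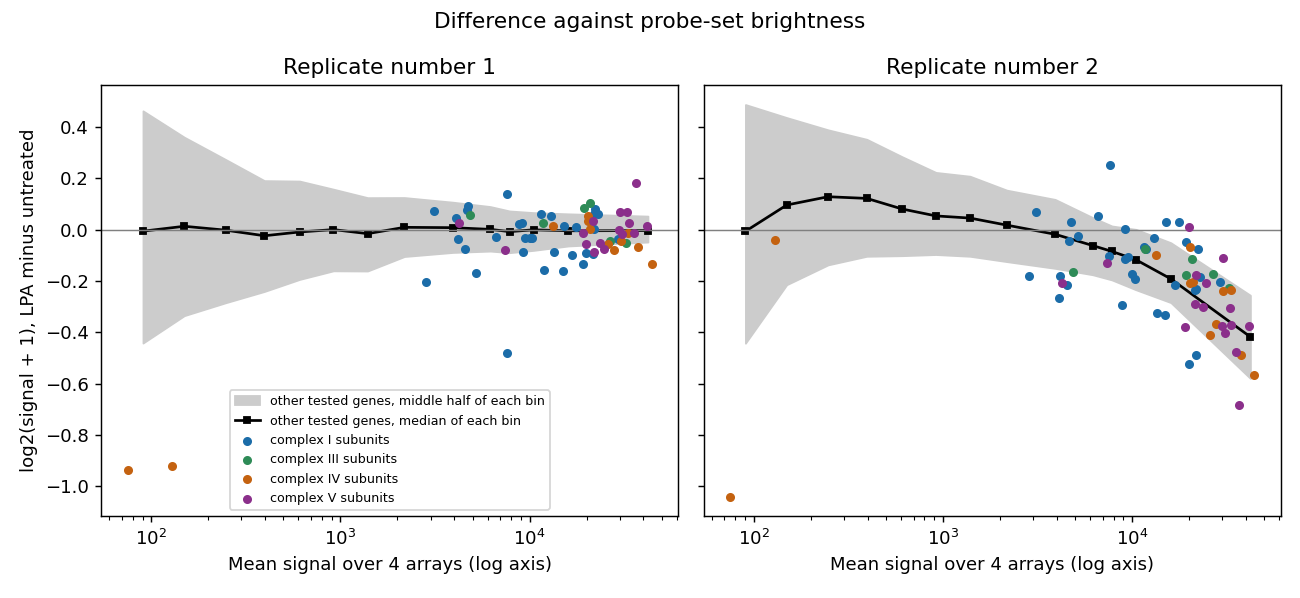
LPA minus untreated difference in log2(signal + 1) against mean signal (log axis) in replicate numbers 1 and 2; coloured points are tested subunits by complex, the black line joins the medians of the other tested genes in brightness bins (bins 1 to 9 and the brightest bin in 5 steps) and the grey band is their interquartile range. In number 2 the line ends at -0.42 in the brightest step, which holds 27 of the 67 tested subunits. In number 1 the line stays near 0.

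Quantile normalization gives every array the same distribution of signals. After it the median over the subunits was -0.0074 (-0.013 in number 1 and -0.0073 in number 2). Below 0 were 36 of 67 by the group means, against 49.9% of all genes, and 35 of 67 in number 2, against 49.8%. Complex I then had -0.020, complex III 0.052, complex IV -0.013 and complex V -0.021. The differences of NDUFB9 (-0.19), NDUFA13 (-0.15), NDUFA7 (-0.25) and NDUFA5 (0.23) kept their signs, and COX7C came to -0.093 and ATP5F1A to -0.048. Without LPA replicate 2 the median on the deposited scale was -0.046, and without any 1 of the other arrays it lay between -0.16 and -0.079.

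Many subunits have other probe sets annotated to them, which may read other transcripts too. Above the filter there were 51 of them, of which 26 had the same sign of mean difference as the brightest and 25 the opposite one. The 16 in the brightest 10% of tested genes had a median of -0.19 in number 2, with 12 below 0. The 35 dimmer ones had 0.036, with 15 below 0. COX7C shows both: a second bright probe set read 45366.5 and 35976 in LPA cells and 42888 and 43392 in untreated cells, while a dimmer one read 4713 and 5559 after LPA, above 4445.0 and 4752 untreated. For UQCRC2 the next probe set read 7503 and 6888 after LPA and 6061 and 5536 untreated, a difference of 0.31 against -0.023 at the brightest. The second COX5A probe set gave 0.54 and was higher in both numbers. For 34 subunits with a next brightest probe set above the filter, the median was -0.11 at the brightest and 0.012 at the next. Of the brightest probe sets of tested subunits, 34 carry the suffix _s_at and 5 the suffix _x_at, which mark probes that can match more than 1 transcript, and these genes have processed pseudogenes that such probes may also detect.

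**Figure D4:**
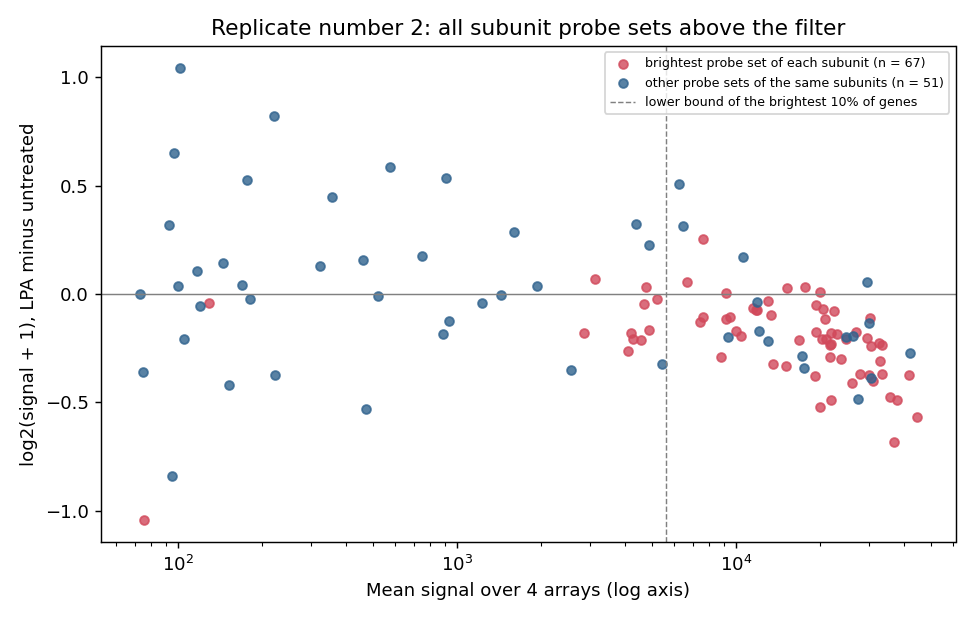
Difference in log2(signal + 1), LPA minus untreated, in replicate number 2 against mean signal (log axis) for all subunit probe sets above the filter: the brightest of each of 67 subunits (red) and the 51 others (blue). To the right of the dashed line, the lower bound of the brightest 10% of genes, most points of both colours lie below 0, and to its left the blue points lie on both sides of 0.

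The 3 subunits of the complex IV core made from mitochondrial DNA had lower values too. COX2, which receives electrons from cytochrome c, read 82136 and 50074 in LPA cells and 85982 and 88094 in untreated cells (-0.44 ± 0.24). COX1, which holds the oxygen-reducing centre, read 78101 and 44606 against 78110 and 73506 (-0.36), which was -0.00016 in number 1 and -0.72 in number 2. COX3 read 4460.1 and 5501 against 5646 and 6355 (-0.27), the one of these genes that was lower by more in number 1. Without LPA replicate 2 the difference was -0.084 for COX2 and 0.044 for COX1. After quantile normalization it was -0.079 for COX2 and -0.059 for COX1, while COX3 stayed at -0.24.

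Promoters were searched for the motifs of the factors named above. A promoter of 250 bases before to 50 after the start (RefSeq, build GRCh38.p14, the first listed start of each gene) was at hand for 62 of the 72 subunits. Exact matches on either strand were counted for 3 motifs: GCGCA and GCGC with any 1 base between them for NRF1, CCGGAAG for ETS factors such as GABP, and AAGATGGC for YY1. NRF1's motif was in 14 subunit promoters (22.6%), against 12.2% of the promoters of 9306 tested genes and 8.58% of all 15843 protein-coding promoters. The ETS motif was in 17 (27.4%, against 19.7% and 14.2%) and the YY1 motif in 10 (16.1%, against 5.57% and 3.91%). In all 34 of the 62 held at least 1 of the 3, and in 0 of them did matches of different motifs overlap. Matches say nothing of whether a factor binds in these cells. The following 120 bases end just before the start site of 1 named subunit of each complex, are written 5′ to 3′ on the gene's strand, and have the NRF1 or ETS match in capitals.
NDUFA9, complex I, chr12:4648994-4649113, + strand, NRF1: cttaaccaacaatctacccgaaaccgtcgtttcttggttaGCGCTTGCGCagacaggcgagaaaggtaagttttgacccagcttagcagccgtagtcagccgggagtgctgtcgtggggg
UQCRC1, complex III, chr3:48609647-48609766, - strand, NRF1: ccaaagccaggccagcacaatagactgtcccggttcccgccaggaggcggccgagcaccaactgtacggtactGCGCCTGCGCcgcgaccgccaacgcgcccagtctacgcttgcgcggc
COX6A1, complex IV, chr12:120437993-120438112, + strand, ETS: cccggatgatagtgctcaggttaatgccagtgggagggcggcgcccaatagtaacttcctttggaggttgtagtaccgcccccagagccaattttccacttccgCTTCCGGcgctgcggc
ATP5PO, complex V, chr21:33915805-33915924, - strand, NRF1: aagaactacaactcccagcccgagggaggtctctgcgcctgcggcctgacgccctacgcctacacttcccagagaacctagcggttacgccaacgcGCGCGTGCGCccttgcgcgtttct

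The medians of subunits with and without a motif lay close together. In number 2 the median was -0.19 for the 13 tested subunits with the NRF1 motif and -0.18 for the 46 without it. For the ETS motif it was -0.18 with and -0.18 without, and for YY1 -0.17 with and -0.19 without. The YY1 matches lay mostly just after the start site, in UQCRC1 and NDUFA9 among others, and are not in the stretches shown.

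The regulators themselves showed little. Of 11 tested regulators of nuclear mitochondrial genes 0 passed, 8 were below 0 and the median was -0.051. TFB2M, a transcription factor for mitochondrial DNA, read 3118 and 2044 in LPA cells and 3172 and 3051 in untreated cells (-0.30), and PPRC1, a relative of PGC-1alpha, read 1474 and 903 against 2049 and 996 (-0.31). Of the genes for the factors whose motifs were counted, NRF1 differed by 0.060, GABPA by 0.099 and YY1 by -0.10. The sign of NRF1's difference turned without LPA replicate 1 (-0.027) or untreated replicate 2 (-0.14), and that of YY1 without LPA replicate 2 (0.016). PPARGC1A, which encodes PGC-1alpha, lay below the filter.

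Among the rest of the pathway, complex II genes and carriers gave a median of -0.045 over 7 tested genes, 5 of them below 0 and 0 past the threshold. SDHC, a membrane anchor of succinate dehydrogenase, read 3297 and 3485 in LPA cells, above 2574 and 2128 in untreated cells (0.53 ± 0.17, limma adjusted p = 0.9999). From bright to dim, its 6 dimmer probe sets gave -0.14, -0.21, -0.20, 0.60, 0.19 and -0.81, so the sign depended on the probe set. CYCS, cytochrome c, read 41737 and 32210 against 40413 and 41448 (-0.16). Assembly factors with other names had a median of -0.014 over 18 tested genes, with 10 below 0 and 0 past the threshold. TMEM70, an assembly factor for complex V, differed by -0.27, and TIMMDC1, one for complex I, by -0.26. Coenzyme Q synthesis genes had -0.016 over 11, with 6 below 0 and 0 past it. In that list COQ9 differed by -0.29 and PDSS1 by 0.18. Abundant reference transcripts, most of them as bright as the subunits, had a median of -0.13 over 9 (0.023 in number 1 and -0.28 in number 2), with PPIA at -0.35 and GAPDH at -0.33.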

How the data were processed

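RNA of 2 LPA and 2 untreated HEK293 samples was hybridised to Affymetrix arrays. The authors deposited 1 linear intensity for each probe set. Per the submitters' processing notes the software was MAS5; its settings are not stated in the labels or headers. Trimmed array means were 500.1 on all 4, so arrays had been scaled before deposit. The number of arrays limits the precision (median SE over all genes 0.244, over the subunits 0.154).

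Each gene was represented by the brightest of its single-symbol probe sets (41097 of 54675, with platform annotation). Genes under the 40th percentile of mean log2(intensity + 1) were left out, which kept 11865. LPA was compared with untreated by limma 3.58.1 in R 4.3.3 (intensity trend, two-sided, Benjamini-Hochberg over all genes). On simulated arrays with independent noise for each gene, it recovered 57%, 98% and 100% of genes changed 2-fold, 4-fold and 8-fold. It also called 18 unchanged genes there. Smaller changes, such as most of those given here, were not simulated, so 0 genes past the threshold does not mean no change. An exact two-sided permutation test of 2 against 2 cannot go below p = 0.333 and was not used. Within-number differences pair arrays only by their number.

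Members and lists were chosen with earlier results of these data known. Named members were up to 6 per complex and 4 non-subunits by smallest p, a fixed set of well-known subunits whatever their test, and up to 2 genes of each pathway list; NDUFS7, ATP5MF, COX17, PAX2, NRF1, GABPA and YY1 were named after their values were seen. NDUFA4 was not analysed here.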

Additional observations from a re-analysis of the deposited data

How the results depend on the processing

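No subunit passed the threshold under any of the 14 alternatives. Over all genes 32 passed with the replicate block, 4 with the block and quantile normalization, and 0 to 3 with 1 array left out (0 without LPA replicate 2). The block called 0 subunits. With the block SDHC had limma adjusted p = 0.0324 at its brightest probe set, and its other probe sets were not fitted with the block. The labels do not say what the number marks. Deviations of the number 1 arrays from their group means correlated at r = 0.330 across genes. The median over the subunits was 0.012 at the next brightest probe sets, a comparison added after the data were seen. The median of complex I became -0.020 (quantile) and 0.0094 (cyclic loess), and that of complex IV -0.013 and -0.038; leaving out 1 array gave -0.099 to -0.046 for complex I and -0.23 to -0.049 for complex IV. The non-subunit median became -0.029 (quantile), -0.0091 (loess), 0.0093 (median centring) and 0.026 (mean of all probe sets), and -0.075 to -0.0012 with 1 array left out.

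Signs turned as follows, none of them for a called gene. Quantile normalization, with or without the block, gave ATP5MK 0.070, COX7A2 0.083, COX8A 0.017, NDUFB8 0.053, UQCR10 0.017, UQCR11 0.056, UQCRB 0.052, UQCRC2 0.053, UQCRQ 0.11 and CYCS 0.056. Cyclic loess gave ATP5F1B 0.00033, COX7A2 0.11, COX8A 0.025, NDUFB8 0.070, UQCR10 0.031, UQCR11 0.075, UQCRB 0.012, UQCRC2 0.067, UQCRQ 0.12 and CYCS 0.0041. The mean of all probe sets gave ATP5PD 0.089, COX11 0.11, COX5A 0.16, COX6A1 0.029, NDUFS1 -0.033, UQCRB 0.11, UQCRC2 0.082, SDHC -0.0071, CYCS 0.028, TMEM70 0.048, NRF1 -0.39 and PDSS1 -0.25. Median centring gave COX7A2 0.016, UQCRC2 0.010 and UQCRQ 0.028. Leaving out 1 array gave ranges that cross 0 for ATP5PB (-0.51 to 0.0055), COX19 (-1.19 to 0.47), COX4I2 (-0.999 to 0.037), COX7A2 (-0.11 to 0.072), NDUFB8 (-0.15 to 0.028), NDUFS1 (-0.10 to 0.23), UQCR10 (-0.24 to 0.021), UQCR11 (-0.18 to 0.087), UQCRC1 (-0.27 to 0.17), UQCRC2 (-0.072 to 0.026), UQCRQ (-0.063 to 0.053), COX1 (-0.76 to 0.044), CYCS (-0.35 to 0.028), TFB2M (-0.61 to 0.0032), NRF1 (-0.14 to 0.26), YY1 (-0.22 to 0.016) and PPRC1 (-0.83 to 0.21). The cause was not tested.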
